A study of Mus musculus with 4 samples.

Results

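The 5 genes examined were *Ctgf*, *Cyr61*, *Nov*, *Wisp1* and *Wisp2*, which encode matricellular proteins of the CCN family. They were chosen by symbol, as members of this family and not by any measured value, and are 5 of the 28693 genes counted. Droplet-based 3' single-cell RNA sequencing had been run on mammary glands of 4 mice, 1 library per mouse. The WT group (replicates 1 and 2) carried floxed *Lats1* and *Lats2* alleles and a heterozygous Cre-dependent EYFP reporter, but no Cre. The LATS1/2 KO group (replicates 1 and 2) carried the same floxed alleles plus *Krt8*-CreERT2, a tamoxifen-inducible Cre driven by the promoter of a luminal keratin, with the reporter heterozygous in replicate 1 and homozygous in replicate 2. All 4 mice, WT included, were given 2 mg tamoxifen on each of 5 days, and glands were taken 7 days after the last dose. Per the study's methods the animals were adult nulliparous females of 3 to 10 months, pairs 3 to 5 of the glands were pooled within a mouse, lymph nodes were removed from the fourth pair, and live cells were sorted after enzymatic digestion. Cre is active only where the *Krt8* promoter is, so stromal cells of the LATS1/2 KO mice are not its targets, and luminal cells that escaped Cre are part of the LATS1/2 KO libraries.

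CCN proteins are secreted into the extracellular matrix, where they bind integrins, heparan sulfate proteoglycans and growth factors and modulate adhesion, migration and matrix production. *Ctgf* and *Cyr61* are the standard readouts of the transcriptional co-activators YAP and TAZ, which LATS1 and LATS2 kinases phosphorylate and keep out of the nucleus and which act through TEAD factors. *Cyr61* is also an immediate early gene that serum and cell handling induce. *Wisp1* was first known as a WNT1-induced gene, *Wisp2* encodes a family member without the C-terminal cystine-knot domain, and *Nov* encodes a member often described as opposing *Ctgf* in matrix production.

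The upstream sequence of *Cyr61* is shown because TEAD factors recognise the letters CATTCC, and because *Cyr61* and *Ctgf* behaved differently in the same cells. The run covers 250 bases that end just before the start of the gene in RefSeq (GRCm38.p6, chr3:145649986-145650235, minus strand, upstream of the *Cyr61* transcript), and capitals mark CATTCC.
*Cyr61*: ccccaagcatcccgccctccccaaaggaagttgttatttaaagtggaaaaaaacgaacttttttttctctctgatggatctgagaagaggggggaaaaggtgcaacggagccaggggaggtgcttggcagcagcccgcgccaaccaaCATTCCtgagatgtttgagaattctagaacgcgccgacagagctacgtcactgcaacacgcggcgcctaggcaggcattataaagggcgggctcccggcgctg
CATTCC, searched with its reverse complement GGAATG so that both strands were read, had 1 match, at 103 to 98 bases before the start, and was present in 4153 of 32851 upstream windows of this length (12.6%). A match of letters is a description and not a bound site. *Ctgf*, *Nov*, *Wisp1* and *Wisp2* were among the 4 members without a sequence entry.

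In GRCm38 *Ctgf* lies on chromosome 10 at 24595442 to 24598683, plus strand, with 5 exons and 348 codons, and shares its locus with the opposite-strand gene *Gm15270*. *Cyr61* lies on chromosome 3 at 145646976 to 145649981, minus strand, with 379 codons. *Nov* and *Wisp1* both lie on chromosome 15, at 54745702 to 54754039 and at 66891320 to 66923201, plus strand, with 354 and 367 codons. *Wisp2*, on chromosome 2 at 163820861 to 163833146, plus strand, is the shortest of the 5 with 251 codons. The counts are 3' UMIs, so a transcript is counted once whatever its length.

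Of 20324 barcodes, 18200 passed the limits on genes and mitochondrial UMIs, which left 3515 to 5272 cells and 38792520 to 46810771 UMIs per library, with medians of 5962.5 to 10141 UMIs per cell. Libraries shared 4 to 12 barcodes per pair. Cells were classed by marker genes that include no CCN gene, and class names say which markers a cell carried. Luminal cells, gated on *Krt8* and *Krt18*, numbered 4144 and 3050 in WT and 3091 and 2734 in LATS1/2 KO. Those with markers of the ER- lineage alone numbered 2772, 2007, 1689 and 1787, in the order WT 1, WT 2, LATS1/2 KO 1 and LATS1/2 KO 2, and those with ER+ markers alone 1026, 745, 435 and 134. A luminal class under the limits for both marker lists held 2 and 1 cells in WT but 901 and 792 in LATS1/2 KO, where it carried 3238 and 2488 CPM (UMIs per 1000000 UMIs of the summed cells) of the basal keratin *Krt14*, against 8218 and 7805 of *Krt8*. This class had no WT counterpart, so its levels are given without a test. Fibroblasts numbered 50 and 20 in WT and 231 and 751 in LATS1/2 KO, and macrophages 7 and 6 against 216 and 371. *Lats1* stood at 25.5 and 25.4 CPM in WT and 16.8 and 19.9 in LATS1/2 KO luminal ER- cells and *Lats2* at 14.9 and 16.9 against 27.4 and 30.5; 3' tags can lie outside the deleted part, so these levels do not check the deletion.

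Levels below are plain CPM of the summed cells of a class in a library, without TMM factors, and are comparable between classes for a gene. Fold changes are log2 values from edgeR's quasi-likelihood test with TMM scaling on the summed counts (n = 2 mice per condition), each with its standard error (SE), and p-values are Benjamini-Hochberg adjusted over all genes tested in that comparison. Whether a sum changes because more cells hold the RNA or because each holds more is addressed with the share of cells that had at least 1 UMI, given with exact binomial 95% intervals that cover counting error only.

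*Ctgf*, the family member most tied to fibrosis and to YAP/TAZ output, rose in luminal ER- and luminal ER+ cells and in all luminal cells pooled. In luminal ER- cells it stood at 15.0 and 11.1 CPM in WT and 380 and 577 in LATS1/2 KO (13.1 ± 2.77 and 478 ± 139, SD, n = 2). Both LATS1/2 KO libraries were far above both WT libraries, and the log2 fold change was 4.83 (SE 0.25, edgeR adjusted p = 1.7e-05). The background of this comparison was high, since 57.1% of the 13261 genes tested passed the threshold, 29.4% upward and 27.7% downward. Of the 4 tested members 3 were called (*Ctgf*, *Wisp1* and *Wisp2*), all upward, and 4 genes are too few to set against these shares. Leaving out any 1 library moved the *Ctgf* estimate only between 4.50 and 5.07.

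The share of luminal ER- cells with a *Ctgf* UMI was 7.50% (6.55 to 8.55) and 6.03% (5.03 to 7.16) in WT and 54.4% (51.9 to 56.7) and 62.2% (59.9 to 64.4) in LATS1/2 KO, at median depths of 7042.5 and 8232 against 7223 and 7991 UMIs. In lymphocytes, which should lack the gene, 0 of 177 and 0 of 74 WT cells had a UMI, which allows shares of up to 1.69% and 4.05% (3 cells of the total, the limit used for a count of 0), and 5.00% and 20.3% of the 20 and 69 LATS1/2 KO cells did, at median depths of 1681 to 3054 UMIs. With every cell thinned to 2000 UMIs the luminal ER- shares became 1.90% and 1.72% in WT and 32.7% and 35.9% in LATS1/2 KO, and those of lymphocytes 0% and 0% against 0% and 12.2%. The luminal ER- shares of LATS1/2 KO were thus above the lymphocyte shares of the same libraries. The most *Ctgf* UMIs in a luminal ER- cell were 12 and 11 in WT and 85 and 174 in LATS1/2 KO, where the 10% of cells with the most held 61.4% and 65.6% of all *Ctgf* UMIs of the class. Both the number of positive cells and the level per positive cell were higher in LATS1/2 KO.

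Luminal cells under the limits of both ER lists held the highest mean *Ctgf* level, at 848 and 1182 CPM in LATS1/2 KO, with UMIs in 86.5% and 89.0% of cells and a median of 6 and 11 UMIs per cell. These cells were deeper than the luminal ER- cells (medians of 12220 and 13693.5 UMIs), and after thinning 62.3% and 72.7% of them were positive, above the thinned luminal ER- shares. Luminal cells with both marker lists stood at 8.45 and 3.37 CPM in WT and 176 and 204 in LATS1/2 KO. Over all luminal cells together *Ctgf* was at 10.0 and 6.43 against 511 and 776 CPM. The log2 fold change was 6.07 (SE 0.33, edgeR adjusted p = 0.00023), in a comparison in which 59.4% of genes passed. All-luminal sums of every member mix the luminal classes in unlike shares in WT and LATS1/2 KO. The part of this mix in the fold changes was not tested.

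Luminal ER+ cells had the lowest WT level of the epithelium, 0.640 and 0.469 CPM (8 and 6 UMIs), and 46.6 and 85.6 CPM in LATS1/2 KO (177 and 118 UMIs). The log2 fold change was 6.76 (SE 0.39, edgeR adjusted p = 0.00021), and 27.2% of all genes tested passed in this class. Free RNA estimated from collagen transcripts would give 268 and 69.5 *Ctgf* UMIs in the LATS1/2 KO ER+ cells, more than the count of replicate 1 and fewer than that of replicate 2. The thinned shares were 7.09% of 423 and 13.6% of 132 cells, against 0% of 8 and 12.2% of 49 lymphocytes of the same libraries. The part of free RNA in the ER+ counts was not tested, as the fit with free RNA subtracted gave no value for this gene.

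**Figure D1:**
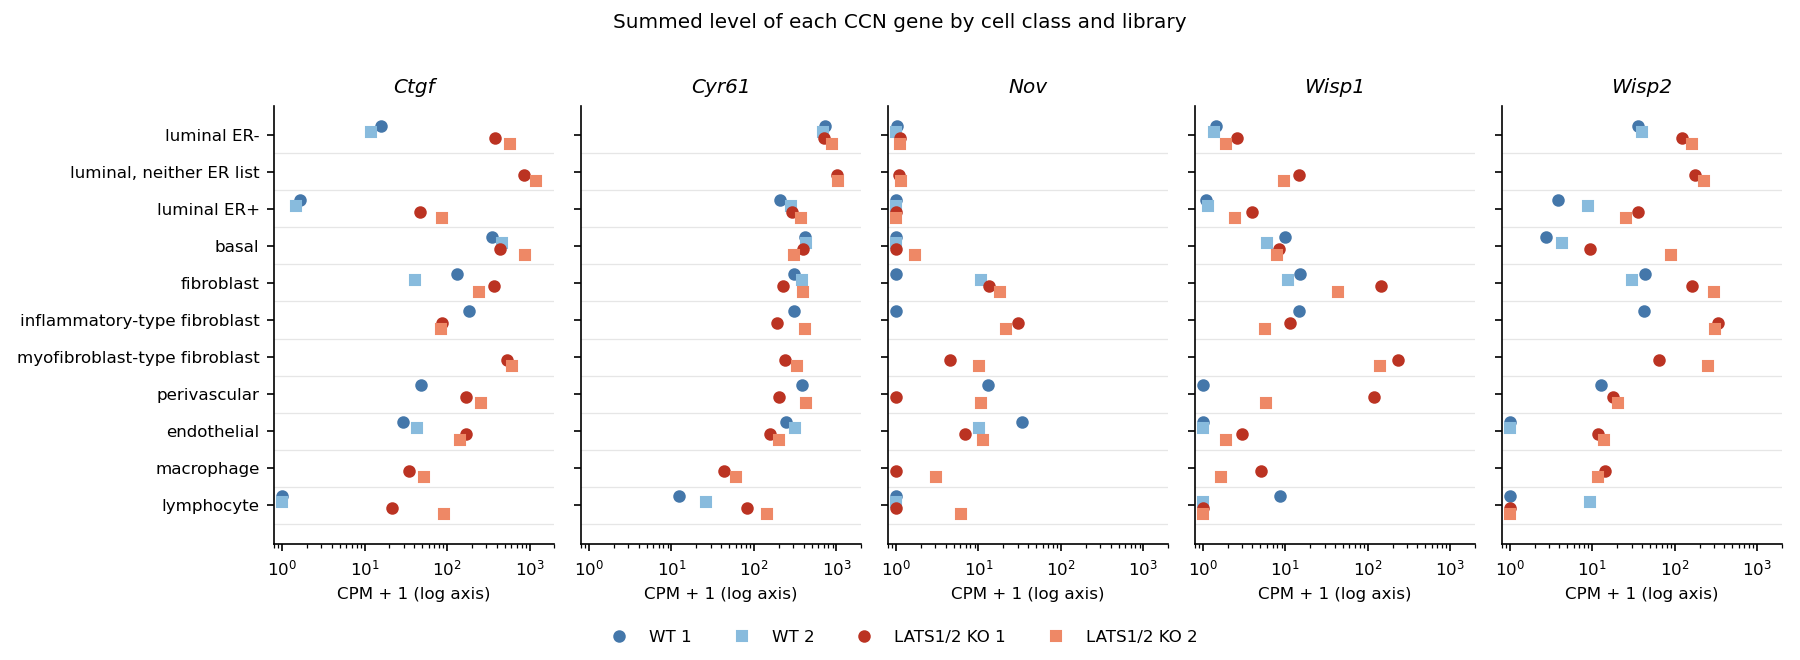
Level of each CCN gene in CPM + 1 on a log axis for each cell class, with 1 point per library (blue, WT 1 and 2; red, LATS1/2 KO 1 and 2); classes with under 20 cells in a library have no point there. *Ctgf* lies at 11.1 to 15.0 CPM in WT and 380 to 577 CPM in LATS1/2 KO luminal ER- cells, while the *Cyr61* points of that class lie together between 691 and 877 CPM.

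Basal cells were the highest WT class for *Ctgf*, at 351 and 466 CPM, against 439 and 870 in LATS1/2 KO. The WT and LATS1/2 KO values overlapped, and the log2 fold change of 0.56 did not pass (SE 0.25, edgeR adjusted p = 0.10), in a class in which 31.2% of genes passed, 15.9% upward and 15.3% downward. The 2 LATS1/2 KO replicates gave unlike values, since the log2 fold change was 0.95 without LATS1/2 KO replicate 1 (adjusted p = 8.2e-06) and -0.0070 without LATS1/2 KO replicate 2 (adjusted p = 0.98). It was 0.09 once free RNA was subtracted.

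In fibroblasts *Ctgf* stood at 133 and 39.5 CPM in WT (28 and 4 UMIs) and 372 and 244 in LATS1/2 KO (542 and 1048 UMIs). Both LATS1/2 KO libraries lay above both WT libraries, but the log2 fold change of 1.80 missed the threshold (SE 0.44, edgeR adjusted p = 0.055), with 4.65% of genes past it. Fibroblasts of the 2 conditions differed in subtype. Of the LATS1/2 KO fibroblasts 122 and 160 carried myofibroblast markers alone, against 2 and 0 in WT, and 68 and 462 carried inflammatory-type markers alone, against 38 and 16. Within the inflammatory-type cells *Ctgf* was at 185 and 44.8 CPM in WT and 86.5 and 84.1 in LATS1/2 KO, so that the LATS1/2 KO values lay between those of the WT mice (log2 fold change -0.46, SE 0.44, edgeR adjusted p = 0.55, with 13% of genes past the threshold). Without WT replicate 1 the estimate turned to 1.14.

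Endothelial cells held 27.9 and 41.7 CPM of *Ctgf* in WT (6 and 9 UMIs) and 167 and 141 in LATS1/2 KO (170 and 152 UMIs). The groups did not overlap, and the log2 fold change was 2.20 (SE 0.32, edgeR adjusted p = 0.0018), in a class in which 7.49% of genes passed. Free RNA was expected to give 34.96 and 35.6 of the LATS1/2 KO UMIs, and with it subtracted the log2 fold change was 1.84 (adjusted p = 0.011). Within LATS1/2 KO, endothelial cells with venous markers stood at 262 and 174 CPM and those with capillary markers at 54.3 and 77.5, without overlap. Macrophages, with too few WT cells to compare, held 33 and 75 *Ctgf* UMIs in LATS1/2 KO, against 47.0 and 72.3 expected from free RNA alone.

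The order of classes by *Ctgf* level thus differed between conditions. In WT it ran from basal cells (408 CPM on average) to fibroblasts (86.1), endothelial cells (34.8), luminal ER- (13.1) and luminal ER+ cells (0.555), with fibroblasts and endothelial cells overlapping in their libraries. In LATS1/2 KO luminal cells under both ER limits (1015), basal cells (654), myofibroblast-type fibroblasts (572) and luminal ER- cells (478) led, and neighbours in that order overlapped. They were followed by perivascular (213) and endothelial cells (154), and then by inflammatory-type fibroblasts (85.3), luminal ER+ cells (66.1), lymphocytes (56.2) and macrophages (42.2), of which neighbours overlapped as well.

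*Cyr61*, the other classical YAP/TAZ readout, was abundant in luminal cells of both conditions, without the difference seen for *Ctgf* in luminal ER- cells. In luminal ER- cells it stood at 717 and 691 CPM in WT and 697 and 877 in LATS1/2 KO. The groups overlapped, and the log2 fold change of -0.20 did not pass (SE 0.13, edgeR adjusted p = 0.22) and was 0.16 when library totals were used without TMM factors (adjusted p = 0.31), so that no direction can be given. Without LATS1/2 KO replicate 2 it was -0.37 (adjusted p = 0.035). A UMI of *Cyr61* was seen in 76.2% and 82.8% of WT and 83.8% and 85.5% of LATS1/2 KO luminal ER- cells, against 3.39% and 8.11% and 15.0% and 27.5% of lymphocytes at lower depth. Nearly every luminal cell under both ER limits was positive (91.2% and 91.8%), at 1006 and 1035 CPM. Over all luminal cells *Cyr61* stood at 523 and 508 CPM in WT and 759 and 912 in LATS1/2 KO. The log2 fold change was 0.49 (SE 0.11, edgeR adjusted p = 0.014) and lost its call without WT replicate 2. Neither luminal ER- nor luminal ER+ cells alone gave a call. The pooled sums differ in class mix, with 2 and 1 cells under both ER limits in WT and 901 and 792 in LATS1/2 KO. The part of this mix in the pooled value was not tested.

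Among the other classes tested *Cyr61* passed the threshold in lymphocytes alone. Luminal ER+ cells held 206 and 278 CPM in WT and 285 and 369 in LATS1/2 KO, which do not overlap (log2 fold change 0.38, SE 0.17, edgeR adjusted p = 0.14). Basal cells held 411 and 429 against 396 and 302 CPM, both LATS1/2 KO libraries lower (log2 fold change -0.39, SE 0.16, edgeR adjusted p = 0.088). In endothelial cells, too, both LATS1/2 KO libraries (154 and 200 CPM) lay below both WT libraries (242 and 311), with a log2 fold change of -0.58 (SE 0.24, edgeR adjusted p = 0.18). Fibroblasts overlapped at 308 and 385 against 224 and 389 CPM (log2 fold change -0.011, SE 0.35, edgeR adjusted p = 1.00), as did their inflammatory-type cells at 308 and 314 against 191 and 420 (log2 fold change 0.14, SE 0.38, edgeR adjusted p = 0.85).

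Lymphocytes, in which 1.04% of genes passed, held 6 and 6 *Cyr61* UMIs in WT and 4 and 28 in LATS1/2 KO, or 11.4 and 25.2 against 82.1 and 143 CPM (log2 fold change 2.93, SE 0.53, edgeR adjusted p = 0.039). Free RNA was expected to give 9.05 and 6.63 UMIs in WT and 4.16 and 8.37 in LATS1/2 KO, so that only LATS1/2 KO replicate 2 stood above it. The call was lost under DESeq2, with the replicate block, with classes from graph clusters, without the highest doublet scores and in 2 of the 4 fits that leave out a library. *Ctgf* showed the same library pattern there, with 0 and 0 UMIs in WT and 1 and 18 in LATS1/2 KO. By mean level, *Cyr61* in WT ran from luminal ER- (704 CPM) to basal cells (420), fibroblasts (347), endothelial (276), luminal ER+ (242) and lymphocyte cells (18.3), with overlap from fibroblasts to luminal ER+ cells. In LATS1/2 KO luminal cells under both ER limits (1020) and luminal ER- cells (787) led, and basal cells (349), luminal ER+ cells (327), perivascular cells (315), inflammatory-type (306) and myofibroblast-type fibroblasts (281) overlapped, above endothelial cells (177), lymphocytes (113) and macrophages (50.9).

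**Figure D2:**
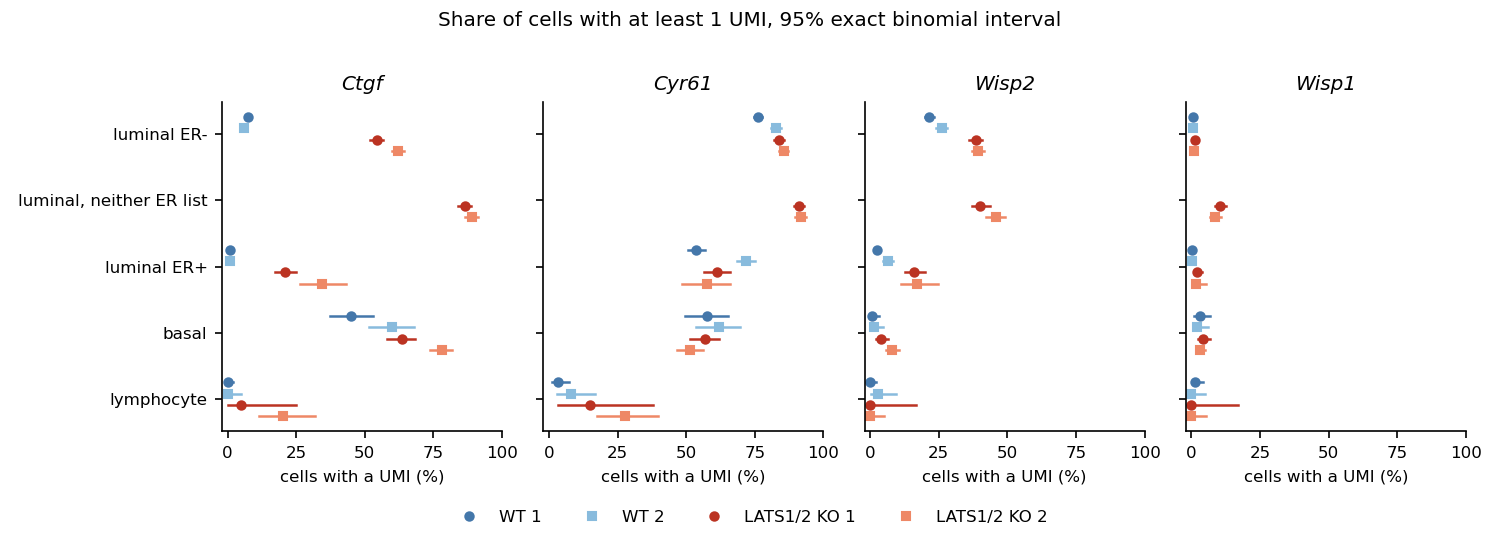
Percent of cells with at least 1 UMI of *Ctgf*, *Cyr61*, *Wisp2* and *Wisp1* in luminal, basal and lymphocyte classes, with 1 point per library and exact binomial 95% intervals as bars. The *Ctgf* share of luminal ER- cells is 6.03% to 7.50% in WT and 54.4% to 62.2% in LATS1/2 KO, while that of *Cyr61* is 76.2% to 85.5% in all 4 libraries.

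*Wisp2*, which codes for the member without the C-terminal domain, rose in luminal cells and in fibroblasts. Luminal ER- cells held 35.3 and 39.6 CPM in WT (888 and 825 UMIs) and 123 and 162 in LATS1/2 KO (1887 and 3027 UMIs). The libraries of the conditions were well apart, with a log2 fold change of 1.57 (SE 0.14, edgeR adjusted p = 0.00013). Positive cells made up 21.5% and 26.0% of WT and 38.5% and 39.3% of LATS1/2 KO luminal ER- cells, and 6.29% and 7.10% against 19.2% and 17.9% after thinning, while lymphocytes had UMIs in 0% and 2.70% of WT and 0% and 0% of LATS1/2 KO cells. Luminal cells under both ER limits stood higher than luminal ER- cells of the same library, at 177 and 225 CPM.

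Over all luminal cells *Wisp2* was at 23.5 and 25.7 against 132 and 179 CPM (log2 fold change 2.45, SE 0.16, edgeR adjusted p = 0.00031). In luminal ER+ cells it was at 2.88 and 7.97 CPM in WT and 34.5 and 24.7 in LATS1/2 KO (log2 fold change 2.45, SE 0.44, edgeR adjusted p = 0.0084). This ER+ call was lost with free RNA subtracted (1.83, adjusted p = 0.075) and without LATS1/2 KO replicate 1 (2.10, adjusted p = 0.086).

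Basal cells had 1 and 2 *Wisp2* UMIs in WT and 17 and 248 in LATS1/2 KO, or 1.78 and 3.35 against 8.38 and 89.97 CPM. The pooled ratio was 21.4 (95% counting interval 7.24 to 104) and the log2 fold change 4.15 (SE 1.39, edgeR adjusted p = 0.036). A few cells of LATS1/2 KO replicate 2 carried this value, as 7.86% of its basal cells had a UMI and a single cell held 59. Free RNA was expected to give 59.4 and 51.8 UMIs in LATS1/2 KO, and with basal cells taken from graph clusters the log2 fold change was 0.093 (adjusted p = 0.89).

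Fibroblasts held 42.6 and 29.6 CPM of *Wisp2* in WT (9 and 3 UMIs) and 159 and 296 in LATS1/2 KO (232 and 1271 UMIs). The log2 fold change was 2.73 (SE 0.49, edgeR adjusted p = 0.016), and it was lost without WT replicate 1 (3.24, adjusted p = 0.17) or WT replicate 2 (2.60, adjusted p = 0.12). Inflammatory-type fibroblasts, present in both conditions, showed it within 1 subtype: 41.1 and 33.6 CPM in WT (6 and 3 UMIs) and 333 and 307 in LATS1/2 KO (127 and 792 UMIs). The log2 fold change there was 3.17 (SE 0.36, edgeR adjusted p = 0.00037), and it passed in all 4 fits that leave out a library and with subtypes from graph clusters (2.24, adjusted p = 0.00077). Shares of positive inflammatory-type cells rose from 7.89% and 12.5% to 54.4% and 53.5%. The pooled ratio was 8.11 (counting interval 4.26 to 17.8), and WT replicate 2 held only 16 such cells, under the limit of 20 used for other classes.

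Endothelial cells had 0 and 0 *Wisp2* UMIs in WT and 11 and 14 in LATS1/2 KO, a level at least 1.71-fold higher than the 3 UMIs that counts of 0 in the WT group allow. The LATS1/2 KO counts were close to the 8.72 and 9.03 UMIs expected from free RNA. Lymphocytes had 0 and 2 UMIs in WT and 0 and 0 in LATS1/2 KO. The mean levels of *Wisp2* in WT were led by luminal ER- cells (37.4 CPM) and fibroblasts (36.1), which overlapped, above luminal ER+ (5.43) and basal cells (2.57). In LATS1/2 KO inflammatory-type fibroblasts led (319.9), apart from luminal cells under both ER limits (201), which overlapped myofibroblast-type fibroblasts (156), as these did luminal ER- cells (143).

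*Wisp1*, the WNT1-inducible member, was rare in WT luminal cells, while WT basal cells held more of it. Luminal ER- cells held 11 and 8 UMIs in WT and 25 and 17 in LATS1/2 KO, or 0.437 and 0.384 against 1.63 and 0.910 CPM. The log2 fold change was 1.23 (SE 0.44, edgeR adjusted p = 0.046), while free RNA was expected to give 19.0 and 12.2 UMIs in LATS1/2 KO, and the call was lost under DESeq2 (adjusted p = 0.20) and in 3 of the 4 fits that leave out a library. Luminal ER+ cells held 1 and 2 UMIs in WT and 11 and 2 in LATS1/2 KO (pooled ratio 21.2, counting interval 5.82 to 116, edgeR adjusted p = 0.010). Most of these UMIs came from LATS1/2 KO replicate 1, without which the ratio was 12.2 (counting interval 1.02 to 107), and without WT replicate 2 it was 31.4 (4.72 to 1334). Only 1 of the 4 fits that leave out a library could test the gene, and free RNA was expected to give 7.23 and 0.826 of the LATS1/2 KO UMIs.

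Luminal *Wisp1* lay mostly in the cells under both ER limits, with 163 and 102 UMIs (13.6 and 8.56 CPM) in LATS1/2 KO, against 13.2 and 6.60 expected from free RNA. There 10.5% and 8.59% of cells were positive, and 2.83% and 1.62% after thinning. LATS1/2 KO lymphocytes had 0%, but numbered only 20 and 69, and 8 and 49 after thinning. These are too few to set a background for the thinned shares. Over all luminal cells the UMIs numbered 14 and 11 in WT and 201 and 121 in LATS1/2 KO, a pooled ratio of 16.9 (counting interval 11.3 to 26.5) and a log2 fold change of 3.86 (SE 0.38, edgeR adjusted p = 0.00095). Basal cells held 8.90 and 5.03 CPM in WT and 7.39 and 6.89 in LATS1/2 KO, too few UMIs for the filter of the test, and the LATS1/2 KO values lay between the WT values.

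Among stromal classes with WT cells fibroblasts held the most *Wisp1*, at 14.2 and 9.88 CPM in WT (3 and 1 UMIs) and 146 and 42.1 in LATS1/2 KO (212 and 181 UMIs). The log2 fold change of 2.93 did not pass (SE 0.93, edgeR adjusted p = 0.12), although the groups did not overlap and the pooled ratio was 5.33 (counting interval 2.07 to 19.7). Within inflammatory-type cells WT held 2 and 1 UMIs and LATS1/2 KO 4 and 12 (13.7 and 11.2 against 10.5 and 4.65 CPM), too few for the filter of the test.

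*Nov* was the rarest member. It had 1 and 0 UMIs in WT and 2 and 2 in LATS1/2 KO luminal ER- cells, and 0 in luminal ER+ cells of all 4 libraries, so it was not detectable there at this depth and was not tested. Fibroblasts held 0 and 1 UMIs in WT and 18 and 74 in LATS1/2 KO (0 and 9.88 against 12.4 and 17.2 CPM), with a log2 fold change of 2.36 that did not pass (SE 1.14, edgeR adjusted p = 0.28) and a pooled ratio of 4.99 (counting interval 0.874 to 199). Endothelial cells held 7 and 2 UMIs in WT and 6 and 11 in LATS1/2 KO, or 32.6 and 9.27 against 5.89 and 10.2 CPM, and the conditions overlapped. By mean level endothelial cells led in WT (20.9 CPM, against 4.94 in fibroblasts, with overlapping libraries), and inflammatory-type fibroblasts in LATS1/2 KO (24.7 CPM, against 8.06 in endothelial cells, without overlap).

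**Figure D3:**
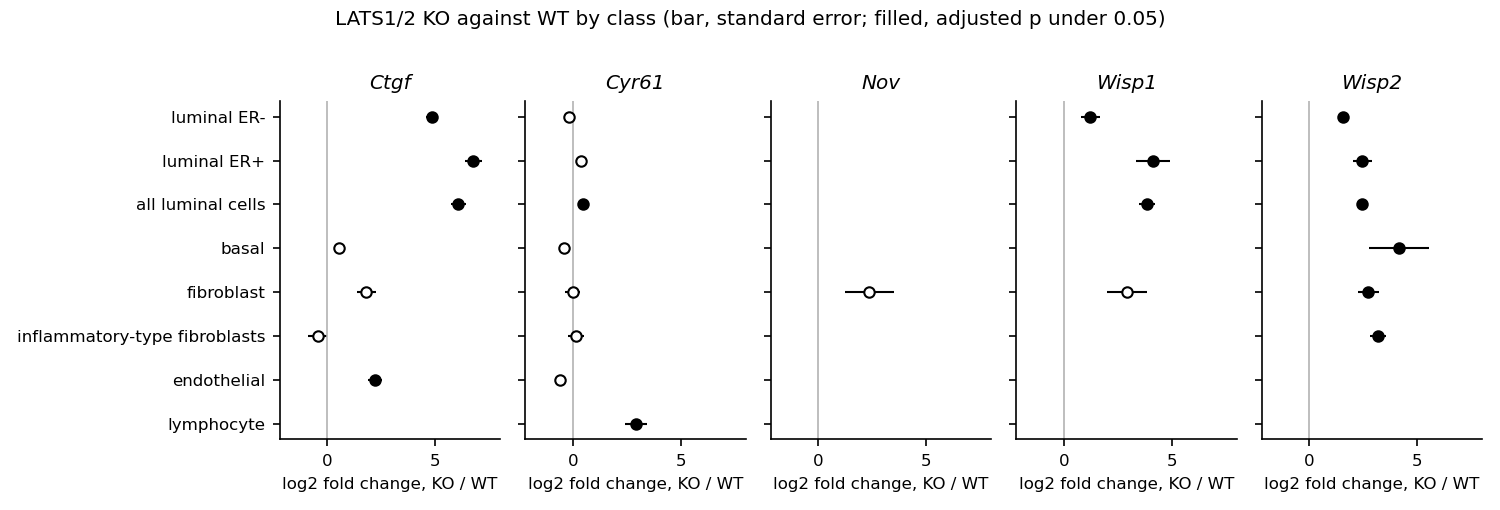
Log2 fold change of LATS1/2 KO over WT for each CCN gene by class from edgeR on summed counts (points, with standard errors as bars; filled where the adjusted p is under 0.05), with no point where a gene was not tested or, for *Ctgf* in lymphocytes, where WT had 0 UMIs. *Ctgf* runs from -0.46 in inflammatory-type fibroblasts to 6.76 in luminal ER+ cells, and *Cyr61* lies between -0.58 and 0.49 outside lymphocytes.

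Stromal subtypes within LATS1/2 KO separated the members. The 3 subtypes were gated on markers without CCN genes and compared with the mouse as block, and 21.5%, 18.6% and 16.8% of all genes passed between myofibroblast-type and inflammatory-type fibroblasts, between perivascular and inflammatory-type cells, and between perivascular and myofibroblast-type cells. *Ctgf* and *Wisp1* were highest in myofibroblast-type cells and *Wisp2* in inflammatory-type cells, *Nov* was higher in inflammatory-type than in myofibroblast-type cells, and no difference in *Cyr61* passed.

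Myofibroblast-type cells held 527 and 618 CPM of *Ctgf* in LATS1/2 KO replicates 1 and 2, perivascular cells 168 and 258, and inflammatory-type cells 86.5 and 84.1. No library of a subtype overlapped another subtype, and the log2 difference of myofibroblast-type from inflammatory-type cells was 2.73 (SE 0.24, edgeR adjusted p = 3.6e-07). Perivascular cells were above inflammatory-type by 1.17 (SE 0.28, edgeR adjusted p = 0.0065) and differed from myofibroblast-type cells by -1.57 (SE 0.25, edgeR adjusted p = 0.00029).

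*Wisp1* was at 232 and 140 CPM in myofibroblast-type cells, with UMIs in 61.5% and 43.1% of them, against 10.5 and 4.65 CPM in inflammatory-type cells (log2 difference 4.64, SE 0.40, edgeR adjusted p = 2.8e-07). Perivascular cells differed between mice, with 14 UMIs in the 35 cells of replicate 1 (118 CPM) and 1 UMI in the 59 cells of replicate 2 (4.86 CPM). Their calls against inflammatory-type (2.56, SE 0.71, edgeR adjusted p = 0.017) and myofibroblast-type cells (-2.08, SE 0.45, edgeR adjusted p = 0.0033) therefore rest on unlike libraries and were lost with no replicate block (adjusted p = 0.066 and 0.053), and 20.5% of perivascular cells lay within 1.5 times the limit of their gate.

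*Wisp2* went the other way, at 63.8 and 249 CPM in myofibroblast-type cells against 333 and 307 in inflammatory-type cells (log2 difference -1.20, SE 0.33, edgeR adjusted p = 0.014). This call was lost under DESeq2 (-1.31, adjusted p = 0.16) and with no replicate block (-1.04, adjusted p = 0.14). The replicates of the myofibroblast-type cells were far apart. Perivascular cells held 2 and 4 UMIs of *Wisp2* (16.8 and 19.4 CPM), below inflammatory-type cells by a log2 difference of -4.44 (SE 0.62, edgeR adjusted p = 4.7e-05) and below myofibroblast-type cells by -3.24 (SE 0.66, edgeR adjusted p = 0.0023). *Nov* was at 28.8 and 20.5 CPM in inflammatory-type and 3.55 and 9.29 in myofibroblast-type cells (log2 difference -1.73, SE 0.51, edgeR adjusted p = 0.022, but 0.25 under DESeq2). Perivascular cells, with 0 and 2 *Nov* UMIs, did not pass against inflammatory-type cells (-2.02, SE 0.93, edgeR adjusted p = 0.16). *Cyr61*, at 191 and 420, 235 and 327, and 202 and 428 CPM in inflammatory-type, myofibroblast-type and perivascular cells, differed by -0.15 to -0.05 between subtypes, less than the spread between replicates.

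The effect of LATS1/2 KO differed between classes, as tested by the term for class and condition against luminal ER- cells with the mouse as block. Among all genes 20.5% passed for luminal ER+, 22.2% for basal, 10.4% for fibroblast, 9.76% for endothelial and 2.15% for lymphocyte cells. The *Ctgf* effect was smaller than in luminal ER- cells in basal cells, by a log2 difference of -4.16 (SE 0.18, edgeR adjusted p = 1.3e-15), in fibroblasts, by -2.81 (SE 0.38, edgeR adjusted p = 2.4e-11), and in endothelial cells, by -2.49 (SE 0.52, edgeR adjusted p = 0.00093). It was larger in luminal ER+ cells by 2.00 (SE 0.26, edgeR adjusted p = 0.00085), where the LATS1/2 KO counts of 177 and 118 UMIs stood beside 268 and 69.5 expected from free RNA. The *Cyr61* effect was larger in luminal ER+ than in luminal ER- cells by 0.65 (SE 0.15, edgeR adjusted p = 0.014) and in lymphocytes by 2.87 (SE 0.61, edgeR adjusted p = 0.00031). That of *Wisp2* was larger in fibroblasts by 1.24 (SE 0.42, edgeR adjusted p = 0.035). With no replicate block the luminal ER+ calls of *Ctgf* and *Cyr61* and the fibroblast call of *Wisp2* were lost.

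The EYFP reporter marks cells in which Cre acted, so EYFP-positive and EYFP = 0 luminal cells of the same mouse were compared. The test pooled luminal ER- and ER+ cells. Outside it lay the cells under both ER limits, 421 and 470 of the 705 and 817 EYFP-positive luminal cells of LATS1/2 KO. A UMI of EYFP was seen in 14.2% and 17.5% of LATS1/2 KO luminal ER- cells, in 8.74% and 22.4% of luminal ER+ cells and in 46.7% and 59.3% of luminal cells under both ER limits. In WT luminal ER- cells, without Cre, the shares were 0.289% and 0.399%, and in LATS1/2 KO lymphocytes 0% and 1.45%. EYFP-positive cells were deeper, with medians of 12960 and 15100 UMIs in luminal ER- cells against 6644.5 and 7160 where EYFP was 0, so a cell with EYFP = 0 need not lack the reporter.

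*Ctgf* stood at 525 and 976 CPM in EYFP-positive pooled luminal ER- and ER+ cells, against 259 and 375 in EYFP = 0 cells of the same mice. Both mice showed the difference, with a log2 value of 1.19 (SE 0.07, edgeR adjusted p = 3.7e-16, mouse as block), and 1.46 when cells were thinned to 2000 UMIs before the reporter was read (adjusted p = 2e-06), but it did not pass with no replicate block (1.22, adjusted p = 0.13). In this comparison 26.4% of all genes passed, 13.6% upward and 12.8% downward. Within luminal ER- cells alone the levels were 566 and 1026 against 324 and 400 CPM, and within luminal ER+ cells 174 and 180 against 31.0 and 55.5. Cells under both ER limits did not show it in both mice, at 882 and 1138 CPM with EYFP and 806 and 1278 without.

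*Wisp2* was also higher with EYFP in the pooled luminal ER- and ER+ cells, at 135 and 220 against 97.9 and 126 CPM. The log2 difference was 0.63 (SE 0.08, edgeR adjusted p = 3.7e-08), and 0.73 without a call in thinned cells (adjusted p = 0.057). Luminal ER- cells showed it in both mice, at 147 and 234 against 116 and 134 CPM. Luminal ER+ cells did not, at 36.3 and 5.996 CPM with EYFP (15 and 2 UMIs) and 34.3 and 30.6 without. Neither did cells under both ER limits, at 176 and 231 CPM with EYFP and 179 and 210 without. *Cyr61* showed 690 and 816 against 596 and 853 CPM in the pooled cells, which overlap (log2 difference 0.05, SE 0.07, edgeR adjusted p = 0.62). Within luminal ER+ cells, of which 38 and 30 were EYFP-positive, it stood at 460 to 720 CPM with EYFP and 258 to 264 without. Luminal ER- cells overlapped, at 717 to 822 against 691 to 899 CPM. The 2 classes were not tested apart. *Wisp1* was at 2.30 and 1.61 against 1.78 and 0.692 CPM (log2 difference 0.69, SE 0.46, edgeR adjusted p = 0.29). Among cells under both ER limits, outside that test, *Wisp1* was at 17.6 and 10.98 CPM with EYFP and 8.87 and 3.23 without.

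EYFP = 0 cells of LATS1/2 KO still differed from WT luminal cells. Compared with WT luminal ER- and ER+ cells, *Ctgf* was higher in them by 4.99 on the log2 scale (SE 0.27, edgeR adjusted p = 0.00029) and *Wisp2* by 1.90 (SE 0.15, edgeR adjusted p = 0.00067), among 44.8% of genes that passed. *Cyr61* was 0.22 higher without passing (SE 0.18, edgeR adjusted p = 0.35), and *Wisp1* passed at 1.79 (SE 0.54, edgeR adjusted p = 0.039) but not in 3 of the 4 fits that leave out a library.

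Per cell, the distribution was read from luminal ER- and ER+ cells thinned to 2000 UMIs each, 3674 and 2710 WT cells, 273 and 335 EYFP-positive cells and 1715 and 1483 EYFP = 0 cells. EYFP was read before the cells were thinned, so reporter status still depended on depth. At least 1 *Ctgf* UMI was found in 1.497% and 1.37% of WT cells, in 46.9% and 55.5% of EYFP-positive cells and in 24.1% and 29.5% of EYFP = 0 cells. At least 5 were found in 0% and 0%, in 4.76% and 15.5%, and in 1.98% and 3.57%. The whole curve of *Ctgf* was thus ordered the same way in both mice, EYFP-positive above EYFP = 0 above WT. For *Cyr61* the corresponding shares with at least 1 UMI were 47.0% and 50.7%, 62.3% and 63.0%, and 53.8% and 60.8%, in the same order of the groups but with smaller gaps. At least 5 *Cyr61* UMIs were found in 6.29% and 6.13%, in 8.79% and 9.25%, and in 7.23% and 12.8%, where EYFP = 0 cells of LATS1/2 KO replicate 2 exceeded its EYFP-positive cells. For *Wisp2* the shares with at least 1 UMI were 4.68% and 5.68%, 17.6% and 19.4%, and 16.2% and 16.3%. In the shares with at least 1 UMI, EYFP-positive and EYFP = 0 cells lay closer together for both of these genes than for *Ctgf*. At least 3 *Wisp2* UMIs were found in 2.56% and 4.78% of EYFP-positive cells and in 0.991% and 1.75% of EYFP = 0 cells.

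**Figure D4:**
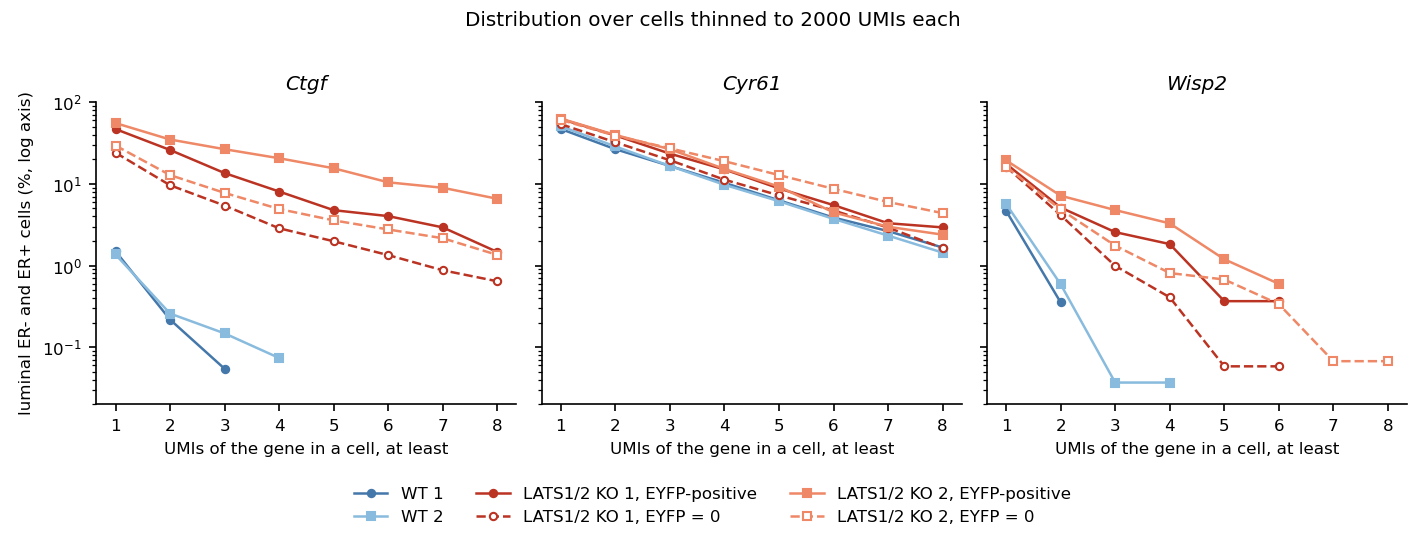
Percent of luminal ER- and ER+ cells, thinned to 2000 UMIs each, that held at least the number of UMIs on the x axis (log y axis), for WT cells and for EYFP-positive (solid, filled) and EYFP = 0 (dashed, open) LATS1/2 KO cells. EYFP was read before thinning. Within each mouse *Ctgf* is higher in EYFP-positive than in EYFP = 0 cells at every count shown, and both lie above WT. At least 5 *Ctgf* UMIs are held by 4.76% and 15.5% of EYFP-positive cells and by 0% of WT cells. The highest counts rest on few cells, as at least 8 are held by 4 and 22 EYFP-positive and 11 and 20 EYFP = 0 cells. At least 5 *Cyr61* UMIs are held by 6.29% and 6.13% of WT, 8.79% and 9.25% of EYFP-positive and 7.23% and 12.8% of EYFP = 0 cells.

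Members were also read jointly within cells. Among LATS1/2 KO luminal ER- cells *Cyr61* was seen in 89.0% and 89.6% of cells with a *Ctgf* UMI and in 77.6% and 78.8% of cells without. Among cells under both ER limits *Wisp1* was seen in 11.9% and 9.36% of *Ctgf*-positive cells and in 1.64% and 2.30% of the others. These shares are not corrected for depth, and deeper cells hold more UMIs of every gene.

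Other genes of the pathway were followed in 4 lists. YAP/TAZ targets outside the family had 19 of 20 members tested in luminal ER- cells, of which 12 rose and 3 fell, with a median log2 fold change of 1.49 against 0.01 over all genes. This list holds *Lats2*, itself a floxed gene in these mice, and the same list is counted in the other comparisons. *Nt5e*, the ecto-5'-nucleotidase CD73, went from 0.199 and 0.192 to 19.0 and 15.5 CPM (log2 fold change 6.06, SE 0.28), and *Ankrd1*, a nuclear ankyrin-repeat protein, from 5.16 and 0.672 to 259 and 213 CPM (5.91, SE 0.57). *Igfbp3*, an IGF-binding protein, rose by 4.86, while *Crim1* (-0.74), *F3* (-0.70), which encodes tissue factor, and *Gadd45a* (-0.56) fell. *Ctgf*, with 4.83, lay near the top of the range of these targets, and *Cyr61*, with -0.20, below their median.

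Of 12 integrins and other reported CCN receptors, all tested, 5 rose and 2 fell, with a median of 0.14, which as a count is near the 57.1% of all genes called in luminal ER- cells. *Itga5*, the fibronectin receptor subunit, rose by 2.63 from 0.238 and 0.528 to 3.52 and 2.52 CPM, and *Itgb1*, its partner, by 1.26. *Itgam* (3.82) and *Itgb2* (1.91), integrin subunits of leukocytes, stayed at or below 2.03 CPM in every library, in libraries whose macrophages numbered 7 and 6 in WT and 216 and 371 in LATS1/2 KO. Their part was not tested, and *Itgam* is one of the symbols listed more than once. *Itgav* (-0.86) and *Sdc4* (-0.52), the latter a heparan sulfate proteoglycan, fell.

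Immediate early and dissociation genes, the group to which *Cyr61* also belongs by its kinetics, had 16 of 16 members tested, of which 3 rose and 12 fell, with a median of -1.51. *Fosb* fell by 2.73 from 2948 and 3250 to 515 and 688 CPM, *Nr4a1* by 2.32 and *Btg2* by 1.93. The heat shock genes *Hspa1a* (1.11) and *Hspa1b* (1.02) and the phosphatase gene *Dusp1* (0.77) rose. All 7 TGF-beta response genes were tested, of which 3 rose (among them *Tgfbi* 3.58 and *Pmepa1* 0.51) and 3 fell (*Skil* -1.16, *Bhlhe40* -0.59, *Smad7* -0.55), with a median of -0.08. These counts, too, are to be read against the 29.4% of all genes called higher and 27.7% called lower. Without TMM factors the median over all genes moved by 0.37 on the log2 scale in this class, and 6339 genes were called higher and 2056 lower in place of 3902 and 3671.

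**Figure D5:**
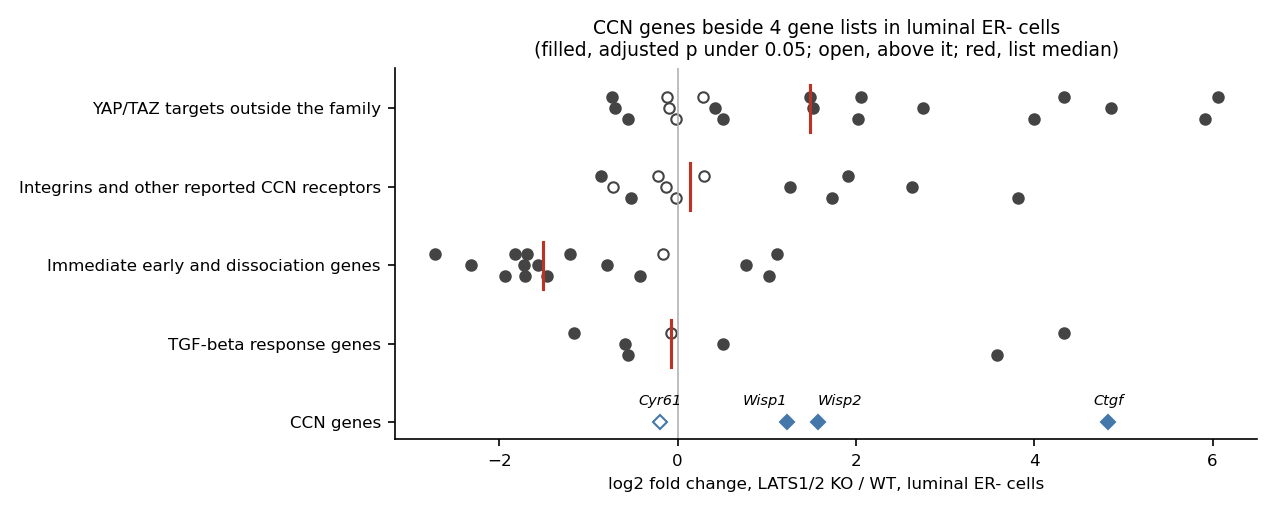
Log2 fold change of LATS1/2 KO over WT in luminal ER- cells for the genes of 4 lists (circles, filled where the adjusted p is under 0.05; red line, list median) and for the CCN genes tested (diamonds). The YAP/TAZ target median is 1.49 and that of immediate early genes -1.51, with *Ctgf* at 4.83, *Wisp2* at 1.57, *Wisp1* at 1.23 and *Cyr61* at -0.20.

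In EYFP-positive against EYFP = 0 luminal cells, where 13.6% of all genes were called higher and 12.8% lower, 11 of 19 YAP/TAZ targets were higher and 3 lower (median 0.51, all genes -0.01), 1 of 16 immediate early genes was higher and 15 lower (median -0.41), 2 of 12 receptors were higher and 1 lower (median 0.02), and 2 of 7 TGF-beta response genes were higher and 1 lower (median 0.04). In basal cells, where *Ctgf* was not called and 15.9% of all genes rose and 15.3% fell, 5 of 17 YAP/TAZ targets rose and 4 fell (median -0.11, all genes 0.01), and 4 of 16 immediate early genes rose and 9 fell (median -0.44). Receptors had 3 of 10 higher and 0 lower there (median 0.34), and TGF-beta response genes 2 higher and 2 lower of 7 (median 0.02).

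Genes whose levels were most like those of a member were ranked by Pearson's r of log2(CPM + 1) over 32 sums of classes and libraries, among 13407 genes. The sums of a mouse share a library, so r is a description. The most similar genes for *Ctgf* were the actin-binding *Cald1* (0.90) and *Fscn1* (0.86). *Cyr61* was followed by *Vangl1* (0.89), *Nfib* (0.86) and *Hmgn3* (0.85), *Wisp1* by *Loxl3* (0.88), the collagen gene *Col7a1* (0.85) and *4833422C13Rik* (0.84), *Wisp2* by *Gpc4* (0.78), *Zfp518b* (0.76) and *Ugp2* (0.75), and *Nov* by *Trim69* (0.88), *Calcrl* (0.85) and *Hoxa5* (0.85). Pairs of members ran from -0.0037 between *Nov* and *Wisp1* to 0.60 between *Ctgf* and *Cyr61*. Among them were 0.52 between *Ctgf* and *Wisp1*, 0.51 between *Cyr61* and *Wisp2*, and 0.49 between *Ctgf* and *Wisp2*. *Wisp1* and *Wisp2* had 0.45, and *Cyr61* and *Nov* 0.02. The genes above were picked for the highest r of all genes and the pairs were not, so the 2 sets cannot be compared.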

How the data were processed

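Cell Ranger UMI counts of 4 libraries, as deposited by the authors, were used; the processing notes name version 3.1.0 and mm10, the matrix headers version 6.1.2. Counts are whole numbers, not normalized. The matrices list 58 symbols more than once, *Itgam* among them, and such symbols are uncertain. Barcodes needed over 500 genes and a mitochondrial share below 20%, as in the study's methods. No doublets were removed, and Scrublet (scanpy 1.11.5) called 0 to 80 cells per library, too few to act as a filter. Each cell was gated on marker UMIs per 10000 UMIs, with limits set after marker levels had been seen but without CCN genes. Counts were summed per class and library (at least 20 cells in each, 15 for inflammatory-type fibroblasts) and tested with edgeR 4.0.16 in R 4.3.3 (quasi-likelihood test after TMM scaling and filterByExpr, p adjusted by Benjamini-Hochberg, threshold 0.05), by condition, or with the mouse as block within mice. SE is the log2 fold change over the root of F. The labels do not say whether the mice share a litter or batch, so p-values of LATS1/2 KO against WT measure the spread between these 4 mice. The EYFP and stromal subtype tests used sums of the 2 LATS1/2 KO mice only. Their p-values set the difference against its variation between those 2 mice. In every edgeR fit information on variance was shared between genes, so a p-value does not rest on the spread of its own gene alone. With 2 mice against 2 the smallest exact two-sided permutation p is 0.33, so shares carry no test.

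Free RNA was estimated from *Col1a1*, *Col1a2* and *Col3a1* (luminal and basal) or *Krt8*, *Krt18*, *Wfdc18*, *Csn3*, *Plet1* and *Trf* (other classes), an upper estimate. The members, the lists, the markers and the tests were chosen with earlier results of these data known. Named genes were the members, the 3 largest and 3 smallest called changes of each list in luminal ER- cells, and the 3 genes most like each member; a few genes that the rule names are not reported here. On simulated data the share of genes changed by log2 values of 1 and 2 that was found was 82.8% and 95% in luminal ER-, 55.7% and 91.9% in luminal ER+, 44.8% and 87.8% in basal, 4.26% and 50% in fibroblast, 4.26% and 53.6% in endothelial and 7.45% and 76.8% in lymphocyte cells. Alternatives were RLE factors, DESeq2 1.42.0, no filter, a replicate block, a 10% mitochondrial limit, graph clusters, removal of the 5% highest Scrublet scores, thinning, free RNA subtraction and each library left out. Sequences and promoters come from RefSeq, gene models from GENCODE.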

Additional observations from a re-analysis of the deposited data

Results flagged for a closer look

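The effect of LATS1/2 KO on a member differed between luminal ER- cells and another class in 7 cases, each by edgeR's test of the class by condition term with the mouse as block. Over all genes this test passed for 20.5% in luminal ER+, 22.2% in basal, 10.4% in fibroblast, 9.76% in endothelial and 2.15% in lymphocyte cells. For *Ctgf* the log2 difference from luminal ER- cells was 2.00 in luminal ER+ cells, -4.16 in basal cells, -2.81 in fibroblasts and -2.49 in endothelial cells. For *Cyr61* it was 0.65 in luminal ER+ cells and 2.87 in lymphocytes, and for *Wisp2* it was 1.24 in fibroblasts. With no replicate block the luminal ER+ calls of *Ctgf* and *Cyr61* and the fibroblast call of *Wisp2* were lost. The part of free RNA in the luminal ER+ counts of *Ctgf* was not tested. The directions of the effects in each class stand in the report, and the fibroblast values compare libraries with 50 and 20 WT cells. No group held more than 2 libraries, so no library could be tested as lying apart from its group.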

How the results depend on the processing

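Over 414 values of members under alternatives, 342 kept their direction and side of the threshold, 36 lost and 19 gained the call and 17 changed sign, while 23 further values could not be had because the gene was filtered out. *Ctgf* and *Wisp2* kept their luminal ER- and all-luminal calls in every alternative run. The rises called in fibroblasts rest on few WT cells: 354 genes passed there, but 23 without WT replicate 1 and 67 without WT replicate 2, against 549 and 548 without LATS1/2 KO replicate 1 or 2. The causes were not tested, unless an alternative holds fewer cells, counts or genes by construction.

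Counts of genes past the threshold moved by over 1.5 times as follows. DESeq2 gave 2082 in luminal ER+ (3254 with edgeR), 1379 in basal (2829), 262 in endothelial (512), 249 in inflammatory-type cells (491), 599 between EYFP-positive and EYFP = 0 cells (3281) and 536, 768 and 621 between stromal subtypes (1591, 1378 and 1249). Without the low-count filter 850 fibroblast, 846 endothelial and 82 lymphocyte genes passed. Thinned sums gave 1849 in luminal ER+, 214 in fibroblast, 312 in endothelial and 0 in lymphocyte cells by edgeR (59 at an unadjusted p under 0.05), against 30 lymphocyte genes unthinned. Free RNA subtracted left 2085 in luminal ER+ and 8 in lymphocyte cells. Graph clusters gave 833 in inflammatory-type cells. Between EYFP-positive and EYFP = 0 cells 173 genes passed in cells thinned to 2000 UMIs, 1396 in cells without cycling UMIs and 5144 over all luminal cells. Without a library the counts ran from 1572 to 2994 in luminal ER+, 23 to 549 in fibroblast, 33 to 175 in lymphocyte and 271 to 483 in inflammatory-type cells, and from 3690 to 5802 for EYFP = 0 cells against WT.

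Same-numbered libraries of the conditions had deviations correlated at 0.012 to 0.053 over classes. With so few libraries this cannot tell whether same-numbered mice shared a litter or batch. With the replicate block 552 fibroblast, 773 endothelial, 9 lymphocyte and 314 inflammatory-type genes passed. The block gave *Ctgf* 0.50 in basal (adjusted p = 0.046) and 1.95 in fibroblast cells, *Cyr61* 0.40 in luminal ER+, 2.61 in lymphocyte and -0.018 in inflammatory-type cells, and *Wisp1* 3.19 in fibroblasts. Within mice, no replicate block left 44 genes in the EYFP comparison and 910 in the fibroblast difference (1408 with it). Calls were then lost at 1.22 for *Ctgf* and 0.65 for *Wisp2* with EYFP, at 1.97 for *Ctgf* and 0.63 for *Cyr61* in luminal ER+ minus luminal ER- cells, at 1.33 for *Wisp2* in fibroblast minus luminal ER- cells, and, between stromal subtypes, at 2.86 and -2.08 for *Wisp1* in perivascular cells and -1.04 for *Wisp2*; *Cyr61* in perivascular minus myofibroblast-type cells was 0.048.

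*Cyr61* changed sign in luminal ER- cells with totals in place of TMM (0.16), in fibroblasts without the filter (0.16), with graph clusters (0.17), without the highest Scrublet scores (0.11) and with free RNA subtracted (0.024), with at least 2 EYFP UMIs (-0.020) or without cycling cells (-0.061), and without the highest Scrublet scores between perivascular and myofibroblast-type cells (0.0053). Its basal value passed with graph clusters (-0.82), and its lymphocyte value was 2.78 under DESeq2, 1.25 with graph clusters and 2.78 without the highest Scrublet scores, none past the threshold. *Ctgf* in inflammatory-type cells was 0.46 with graph clusters, in basal cells 0.68 without the filter (called), and in fibroblasts 1.79 with RLE factors, 1.83 under DESeq2 and 1.97 without the filter, each called. *Wisp1* in luminal ER- cells lost its call at 1.26 under DESeq2, 1.17 at 10% mitochondrial UMIs, 1.01 thinned and 0.92 without the highest Scrublet scores, and gained one in fibroblasts without the filter (3.11) and with EYFP over all luminal cells (2.01). *Wisp2* lost its call at 1.83 in luminal ER+ cells with free RNA subtracted, at 4.12 under DESeq2 and 0.093 with graph clusters in basal cells, at 0.73 in thinned cells with EYFP and at -1.31 under DESeq2 between myofibroblast-type and inflammatory-type cells, where *Nov* was -2.04 and not called.

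With a library left out, *Ctgf* ranged from -0.0070 to 0.95 in basal, 1.37 to 3.23 in fibroblast and -0.94 to 1.14 in inflammatory-type cells. *Cyr61* ranged from -0.37 to -0.074 in luminal ER-, 0.20 to 0.60 in luminal ER+, -0.62 to -0.20 in basal, -0.48 to 0.43 in fibroblast, 2.10 to 3.22 in lymphocyte and -0.55 to 0.70 in inflammatory-type cells, 0.37 to 0.59 over all luminal cells and -0.053 to 0.42 in EYFP = 0 cells. *Wisp1* ranged from 0.74 to 1.62 in luminal ER-, 0.92 to 2.32 in EYFP = 0 and 2.83 to 3.61 in fibroblast cells, and *Wisp2* from 1.92 to 3.35 in luminal ER+, 3.85 to 4.93 in basal and 2.18 to 3.24 in fibroblast cells. A lone library of a group was taken to vary like the others. All-luminal sums, EYFP = 0 cells against WT, plain totals and the limit of 15 cells were chosen after the data had been seen.

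Depth limits *Nov* in all epithelium, *Wisp1* in luminal ER- and ER+ cells and every member in WT stroma, where 20 to 50 fibroblasts and 36 to 41 endothelial cells were read per library. A change of log2 1 was found in 4.26% of simulated fibroblast and endothelial genes, so a member not called there may still differ.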

Other observations

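A sixth gene of the family, *Wisp3*, was not among the genes chosen and was read after its values had been seen. It had 4 and 8 UMIs over all luminal cells in WT and 0 and 0 in LATS1/2 KO, of which luminal ER+ cells held 2 and 6 and luminal ER- cells 1 and 2. With so few UMIs it was not tested.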
